A study of Mus musculus with 14 samples.

Results

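The lysosomal proteases called cathepsins and their secreted inhibitor cystatin C were followed in whole epididymal fat, the visceral depot beside the testis, of male mice. The group holds 10 genes, named here with their probe sets on the array: Ctss (10494271), Ctsk (10494262), Ctsl (10410124), Ctsb (10415844), Ctsh (10587733), Ctsz (10490212), Ctsc (10554789), Ctsd (10569319), Ctsa (10478594) and Cst3 (10488415), which encodes cystatin C. The rule takes them by symbol and uses no measured value, but the members were chosen with earlier results of these data known. All 10 were found among the 19937 genes of the array that carry a single symbol, each with 1 probe set. There were 14 arrays in 4 groups: EKO mice on Western diet (n = 4), EKO mice on normal diet (n = 4), wild-type (WT) mice on Western diet (n = 3) and WT mice on normal diet (n = 3). WT mice were C57BL6/J, and EKO is the labels' name for a genotype that they tie to apolipoprotein E. The Western diet, which the labels also call a high fat diet, held 42% milk fat. Mice were 8 weeks old when the diets began, and the feeding lasted 24 weeks. The labels describe the replicates of a group as biological, with no statement of cages or litters, and nothing more about how the EKO allele was made. Values are deposited log2 intensities. Group levels are means ± SD over arrays, and log2 fold changes carry their standard error (±). Adjusted p values come from limma with Benjamini-Hochberg adjustment over all 19937 genes, two-sided, and a gene is said to rise or fall only where the adjusted p lay under 0.05. Levels of different genes are not set against each other, since a probe set's brightness also depends on its probes.

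Cathepsins are made as inactive precursors, tagged with mannose 6-phosphate and carried to endosomes and lysosomes, where acid activates them. Most of those studied here are cysteine proteases of the papain family, while Ctsd is an aspartic protease and Ctsa a serine carboxypeptidase. Cystatin C is secreted by most cells and blocks papain-family cathepsins that reach the extracellular space. In obese fat, macrophages that take up lipid from dying adipocytes are known to be rich in lysosomes.

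Apoe checked the genotype labels. Its level was 10.04 ± 0.19 in EKO on Western diet and 9.74 ± 0.22 in EKO on normal diet (SD, n = 4 each), against 13.39 ± 0.26 in WT on Western diet and 13.41 ± 0.24 in WT on normal diet (SD, n = 3 each). The highest EKO array, at 10.26, lay below the lowest WT array, at 13.13. The summed picture of tissue markers was that of fat: 8 adipocyte markers averaged 13.33 to 13.60 per array, and 5 markers of the epididymis averaged 6.40 to 6.85, about as low as the array background, taken from olfactory and vomeronasal receptor rows (6.29 to 6.84). That background set 5 arrays (6.75 to 6.84) apart from 9 (6.29 to 6.56). Those 5 were EKO Western replicates 1 and 3, EKO normal replicate 2, WT Western replicate 1 and WT normal replicate 1. WT Western replicate 1 also stood apart in genes that the liver makes: of 10 hepatocyte markers, a list added after the values were seen, 9 were highest in that array. Albumin (Alb) stood at 12.96 there, against 7.75 to 9.20 in the other 13 arrays. Results that rest on this array are given without it too.

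In WT mice, 6 of the 10 genes rose on Western diet: Ctss, Ctsk, Ctsh, Ctsl, Ctsz and Ctsd. The background was 3.19% of all genes rising. Ctss had the largest fold change of the group, 3.45-fold, and Ctsk followed with 2.32-fold. The remaining 4, Ctsb, Ctsa, Cst3 and Ctsc, did not pass the test. The median log2 fold change of the 10 genes was 0.69, and that of all genes was -0.02. These are measurements on whole tissue, so that more cells of a type and more RNA per cell cannot be told apart. In EKO mice none of the 10 passed, and in both genotypes on normal diet the levels lay close together.

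Ctss, the cathepsin that trims the invariant chain of MHC class II in antigen-presenting cells, was measured at 9.36, 9.89, 9.65 and 9.58 in EKO on Western diet and at 9.10, 8.79, 9.41 and 10.10 in EKO on normal diet. In WT it was measured at 10.90, 11.21 and 11.51 on Western diet, against 9.29, 9.43 and 9.55 on normal diet. All 3 WT Western arrays lay above each of the other 11, and the EKO groups overlapped. The group levels were 9.62 ± 0.22 in EKO Western, 9.35 ± 0.56 in EKO normal (SD, n = 4 each), 11.21 ± 0.31 in WT Western and 9.42 ± 0.13 in WT normal (SD, n = 3 each). In WT, Ctss rose by 1.79 ± 0.25 on the log2 scale (limma adjusted p = 0.0011), and by 1.94 ± 0.28 without WT Western replicate 1 (adjusted p = 0.00075). EKO normal replicate 4, at 10.10, was above all 4 EKO Western arrays.

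Ctsk is the collagen-cutting cathepsin of osteoclasts, and it is also made by macrophages and fibroblasts. It was measured at 8.02, 8.07, 8.18 and 8.22 in EKO on Western diet and at 8.31, 8.12, 8.44 and 8.91 in EKO on normal diet. In WT the values were 9.43, 9.69 and 10.04 on Western diet, against 8.50, 8.23 and 8.76 on normal diet. The WT Western arrays again lay above each of the other 11, while the EKO Western arrays were the most closely grouped (8.12 ± 0.09, SD, n = 4). The level was 8.45 ± 0.34 in EKO normal (SD, n = 4), 9.72 ± 0.30 in WT Western and 8.50 ± 0.26 in WT normal (SD, n = 3 each). In WT, Ctsk rose by 1.22 ± 0.19 (adjusted p = 0.00196), and by 1.36 ± 0.20 without WT Western replicate 1 (adjusted p = 0.00096).

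**Figure D1:**
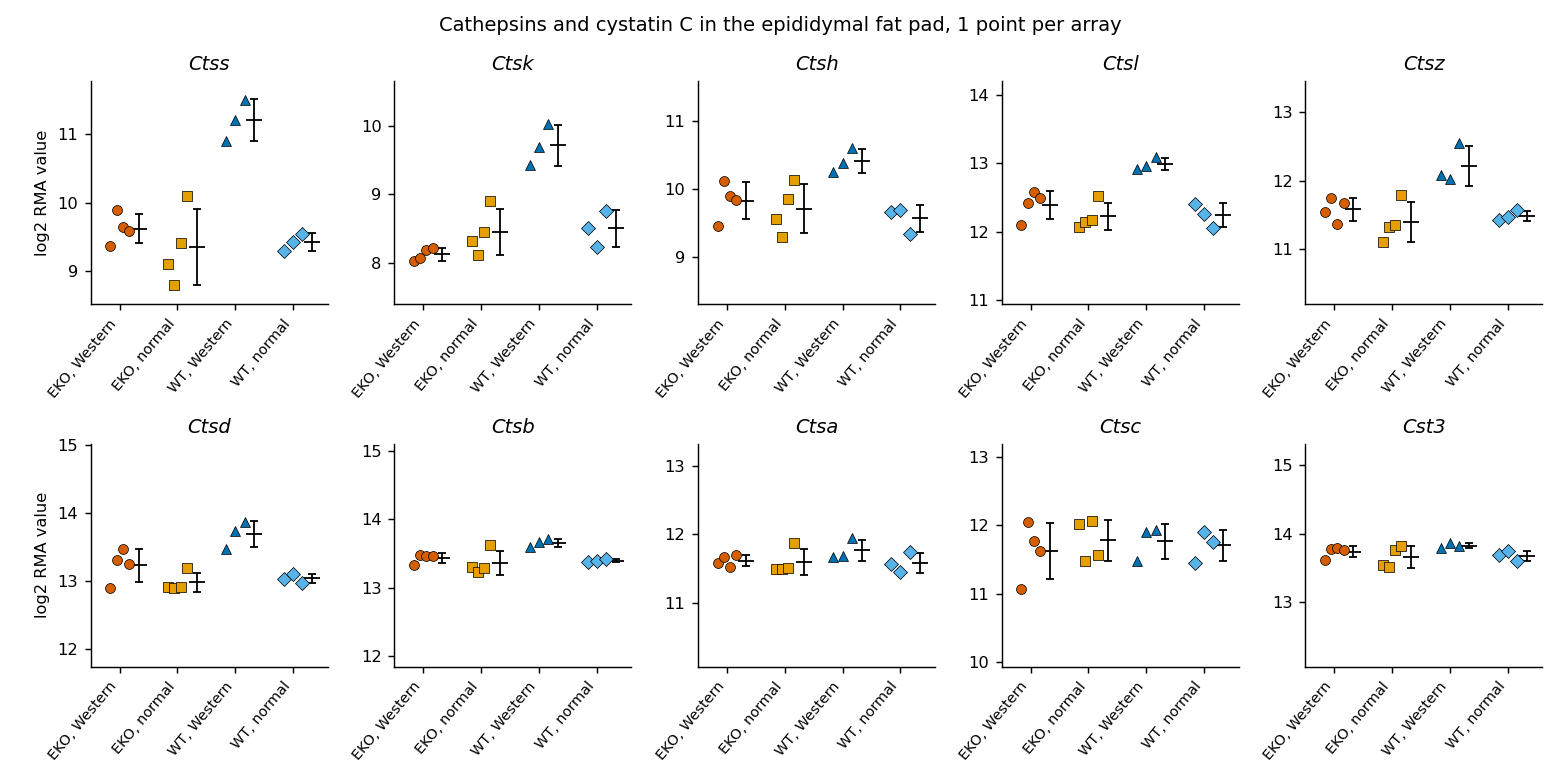
Log2 level of each of the 10 genes in every array, with 1 panel per gene, the 4 groups along the x axis and the group mean as a bar with its SD. In 9 of the 10 panels the WT Western group has the highest mean. Its 3 arrays lie above all others in the panels of Ctss, Ctsk, Ctsh, Ctsl, Ctsz and, narrowly, Ctsd. In the panel of Ctsc the groups overlap.

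Ctsk and Ctss are neighbours among the protein-coding genes of chromosome 3, with Arnt before Ctsk and Hormad1 after Ctss in the reference annotation. The 250 bases before their starts are given here (RefSeq, GRCm38.p6, 5′ to 3′ along the gene), because these are the 2 members with the largest rises. Ctss is read from chr3:95526536-95526785 on the plus strand and Ctsk from chr3:95498960-95499209 on the plus strand. Capitals mark GAGGAA, the core of the site that the ETS factor PU.1 recognises, or its reverse complement.
Ctss: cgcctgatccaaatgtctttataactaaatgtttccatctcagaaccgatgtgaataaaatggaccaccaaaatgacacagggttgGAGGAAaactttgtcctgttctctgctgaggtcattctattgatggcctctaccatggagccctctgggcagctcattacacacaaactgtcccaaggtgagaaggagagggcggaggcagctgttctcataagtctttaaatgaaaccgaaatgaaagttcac
Ctsk: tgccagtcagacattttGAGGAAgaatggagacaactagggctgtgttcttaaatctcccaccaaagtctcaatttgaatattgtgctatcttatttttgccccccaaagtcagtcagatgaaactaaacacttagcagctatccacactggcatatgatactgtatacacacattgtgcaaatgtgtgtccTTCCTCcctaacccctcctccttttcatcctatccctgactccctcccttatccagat
Counted from the start, with -1 as the last base shown, Ctss holds 1 GAGGAA, at -164, and Ctsk holds 2, at -233 and -58. The one at -58 is the reverse complement. That motif is common: 23.3% of 32851 promoter windows of the same length hold it on either strand. Ctsc and Cst3, which did not rise, hold it as well, Ctsc at 2 places.

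The lysosomal E-box served as a second comparison. TCACGTGA, the core of the element through which TFEB and its relatives drive lysosomal genes, contains the shorter CACGTG, so the 2 searches overlap. TCACGTGA was found in 2 of the 9 windows of the 8 members with a promoter in the table, and in 0.785% of all windows. CACGTG was found in 6.02% of all windows and, among the members, also in Ctsl. The windows with TCACGTGA belong to Ctsd (chr7:142387828-142388077, minus strand) and to the second of the starts listed for Ctsa (chr2:164833523-164833772, plus strand), with CACGTG or TCACGTGA in capitals.
Ctsd: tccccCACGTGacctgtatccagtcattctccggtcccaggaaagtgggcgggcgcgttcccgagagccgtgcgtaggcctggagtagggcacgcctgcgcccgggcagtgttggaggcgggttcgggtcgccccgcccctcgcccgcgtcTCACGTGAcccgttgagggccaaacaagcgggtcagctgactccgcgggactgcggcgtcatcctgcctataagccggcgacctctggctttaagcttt
Ctsa: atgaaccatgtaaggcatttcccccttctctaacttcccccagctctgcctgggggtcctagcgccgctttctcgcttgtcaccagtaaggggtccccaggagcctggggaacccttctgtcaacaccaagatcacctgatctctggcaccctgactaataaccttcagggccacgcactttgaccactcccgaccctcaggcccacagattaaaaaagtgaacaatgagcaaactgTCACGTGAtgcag
Ctsd rose on Western diet in WT and Ctsa did not pass. Ctss and Ctsk have neither form of the E-box in the window. All motifs were searched on both strands. TATAAA (12.4% of all windows) matched in Ctss alone among the members, and TGANTCA, the AP-1 site (6.75% of all windows), in none. GGGCGG, the core of the Sp1 site, is held by 32.7% of all windows and by those of Cst3, Ctsc, Ctsd, Ctss and Ctsz. Ctsb and Ctsh are named only.

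Ctsl and Ctsb are lysosomal endopeptidases found in nearly all cells, and Ctsb also removes dipeptides from the C-terminus. Ctsl was measured at 12.10, 12.41, 12.57 and 12.49 in EKO on Western diet and at 12.07, 12.14, 12.17 and 12.52 in EKO on normal diet. It was measured at 12.91, 12.96 and 13.09 in WT on Western diet, against 12.41, 12.26 and 12.06 in WT on normal diet. The WT groups did not overlap, and Ctsl rose by 0.75 ± 0.14 in WT (adjusted p = 0.00617). Ctsb had 13.60, 13.67 and 13.71 in WT on Western diet, against 13.38, 13.38 and 13.42 in WT on normal diet. These 2 groups did not overlap either, yet the log2 fold change of Ctsb, 0.27 ± 0.10, did not pass (adjusted p = 0.152). Ctsb in EKO spanned 13.33 to 13.48 on Western diet and 13.23 to 13.62 on normal diet.

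Ctsh, an aminopeptidase, and Ctsz, a carboxypeptidase, both trim the ends of peptides. Ctsh was measured at 9.46, 10.12, 9.90 and 9.84 in EKO Western and at 9.56, 9.30, 9.85 and 10.13 in EKO normal arrays. In WT it had 10.24, 10.38 and 10.59 on Western diet, against 9.66, 9.69 and 9.34 on normal diet. The WT Western arrays were above all others, and Ctsh rose by 0.84 ± 0.20 in WT (adjusted p = 0.0226). Ctsz was measured at 11.54, 11.74, 11.37 and 11.67 in EKO Western and at 11.11, 11.32, 11.35 and 11.80 in EKO normal arrays. In WT it had 12.08, 12.02 and 12.54 on Western diet, against 11.42, 11.46 and 11.57 on normal diet. Ctsz rose by 0.73 ± 0.17 in WT (adjusted p = 0.0196), with no overlap between the WT groups. Both calls were near the threshold. Ctsh did not pass without WT normal replicate 2 (adjusted p = 0.0518) or 3 (0.110), or without WT Western replicate 2 (0.0671) or 3 (0.121). Ctsz did not pass without WT normal replicate 1 (0.0527), 2 (0.0707) or 3 (0.0516), or without WT Western replicate 3 (0.115), nor when only the 2 WT groups were fitted (0.0504).

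Ctsd, the main aspartic protease of lysosomes, was measured at 12.90, 13.31, 13.46 and 13.25 in EKO on Western diet and at 12.91, 12.91, 12.92 and 13.19 in EKO on normal diet. Its values were 13.48, 13.73 and 13.86 in WT on Western diet, against 13.04, 13.10 and 12.98 in WT on normal diet. Each WT Western array exceeded every other array, though only narrowly for the lowest of them. Ctsd rose by 0.65 ± 0.14 in WT (adjusted p = 0.0126), but did not pass without WT normal replicate 3 (adjusted p = 0.0583), WT Western replicate 2 (0.0525) or WT Western replicate 3 (0.0795). Without WT Western replicate 1, all 6 genes that rose still passed, with log2 fold changes of 0.76 ± 0.14 for Ctsd, 0.92 ± 0.22 for Ctsh, 0.78 ± 0.16 for Ctsl and 0.80 ± 0.19 for Ctsz.

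Ctsa, Ctsc and Cst3 were the members whose levels differed least between the WT diets, with Ctsb next. Ctsa, which shields neuraminidase and beta-galactosidase in a lysosomal complex, had 11.67, 11.68 and 11.95 in WT on Western diet, against 11.57, 11.44 and 11.74 in WT on normal diet. Its WT groups overlapped, and the log2 fold change was 0.18 ± 0.12 (adjusted p = 0.548). Ctsc, the dipeptidyl peptidase that activates the serine proteases of leukocyte granules, had 11.47, 11.91 and 11.92 in WT on Western diet, against 11.45, 11.91 and 11.76 in WT on normal diet. The WT groups of Ctsc overlapped as well, with a log2 fold change of 0.06 ± 0.23 (adjusted p = 0.976). It was the one member with its highest group mean elsewhere, 11.78 ± 0.30 in EKO on normal diet (SD, n = 4), and its EKO Western arrays ran from 11.06 to 12.05. Cst3 had 13.79, 13.86 and 13.82 in WT on Western diet, against 13.68, 13.74 and 13.60 in WT on normal diet. These Cst3 values did not overlap, but the difference was small (0.15 ± 0.10, adjusted p = 0.510). In all, 8 of the 10 genes had WT Western arrays wholly above WT normal arrays, beside 8.77% of all genes.

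In EKO mice, 0 of the 10 genes passed for diet, beside 0.0% of all genes. At an unadjusted p under 0.05 limma found 883 of the 19937 genes (4.43%) and 0 of the 10. The log2 fold changes ran from -0.32 ± 0.17 for Ctsk to 0.27 ± 0.22 for Ctss, and adjusted p values from 0.946 to 0.984. The 95% interval was -0.68 to 0.03 for Ctsk and -0.20 to 0.74 for Ctss. Between these lay Ctsd (0.25 ± 0.12), Ctsz (0.19 ± 0.14), Ctsl (0.17 ± 0.12), Ctsh (0.12 ± 0.17) and Ctsc (-0.16 ± 0.20). For Ctsa (0.02 ± 0.11), Ctsb (0.07 ± 0.09) and Cst3 (0.08 ± 0.08) the estimates were the smallest. For 0 of the 10 did the EKO diet groups lie apart, beside 0.973% of all genes with Western arrays wholly higher and 1.59% with them wholly lower. EKO normal replicate 4 carried the highest value of its group for 9 of the 10 genes, and the EKO estimates depended on it. Without it Ctss differed by 0.52 ± 0.17 in EKO, still short of the threshold (adjusted p = 0.929). Larger estimates than over all arrays were also found for Ctsd (0.32 ± 0.12), Ctsz (0.32 ± 0.13), Ctsl (0.27 ± 0.12), Ctsh (0.26 ± 0.16) and Ctsb (0.16 ± 0.07). Those of Ctsk (-0.17 ± 0.15) and Ctsc (-0.23 ± 0.21) stayed below 0. In that fit 0 of the 10 passed. The 0 of the 10 at an unadjusted p under 0.05 holds for the fit of all arrays only, and depended on EKO normal replicate 4. Without that array, limma found 728 of the 19937 genes at an unadjusted p under 0.05. Among the members, Ctss, Ctsd, Ctsz, Ctsl and Ctsb then lay furthest from 0 relative to their SE, all above 0.

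Between genotypes on normal diet, 0 of the 10 genes differed, beside 0.00502% of all genes, which is 1 gene, Apoe. The 10 log2 fold changes ran from -0.09 ± 0.16 for Ctsz to 0.14 ± 0.18 for Ctsh, with a median of -0.02 in the members and -0.01 in all genes. Ctss (-0.07 ± 0.24), Ctsd (-0.06 ± 0.13), Ctsk (-0.05 ± 0.18), Ctsb (-0.03 ± 0.09), Ctsl (-0.02 ± 0.13) and Cst3 (-0.02 ± 0.09) had estimates below 0, and Ctsa (0.01 ± 0.11) and Ctsc (0.07 ± 0.21) above it. At an unadjusted p under 0.05, limma also found 0 of the 10, beside 1.13% of all genes. The EKO and WT arrays overlapped for all 10 on this diet, while 0.848% of all genes had EKO arrays wholly higher and 0.868% wholly lower.

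On Western diet, 4 of the 10 genes were lower in EKO than in WT, beside 4.05% of all genes: Ctsk, Ctss, Ctsz and Ctsl. This comparison shares its WT Western arrays with the diet comparison in WT, so the 2 are not independent. Ctsk fell by 1.60 ± 0.18 (adjusted p = 0.000195) and Ctss by 1.59 ± 0.24 (adjusted p = 0.00164). Ctsz fell by 0.63 ± 0.16 (adjusted p = 0.0285) and Ctsl by 0.59 ± 0.13 (adjusted p = 0.0161). The log2 fold change was -0.58 ± 0.18 for Ctsh (adjusted p = 0.0871) and -0.46 ± 0.13 for Ctsd (adjusted p = 0.0508), neither past the threshold. Ctsd was at that edge, and passed in 9 of 16 alternative fits, Ctsh in 2 of 16. The log2 fold change of Ctsb was -0.23 ± 0.09 (adjusted p = 0.184). EKO Western arrays lay wholly below WT Western arrays for 7 of the 10 genes, beside 8.71% of all genes. Ctsa, Ctsc and Cst3 were the genes with overlap, with log2 fold changes of -0.15 ± 0.11, -0.14 ± 0.21 and -0.09 ± 0.09. Without WT Western replicate 1 the log2 fold change was -1.74 ± 0.19 for Ctsk, -1.74 ± 0.26 for Ctss, -0.70 ± 0.18 for Ctsz and -0.63 ± 0.15 for Ctsl, with adjusted p values from 0.000118 to 0.0223. In that fit Ctsd also passed (-0.56 ± 0.14, adjusted p = 0.0175), as it did without EKO Western replicate 3 (-0.54, adjusted p = 0.0344). Without WT Western replicate 3, only Ctsk and Ctss passed, Ctsl having an adjusted p of 0.105 and Ctsz of 0.199. Ctsl also missed the threshold without WT Western replicate 2 (0.0611), and Ctsz without EKO Western replicate 1 (0.0689), 3 (0.0759) or 4 (0.0543).

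**Figure D2:**
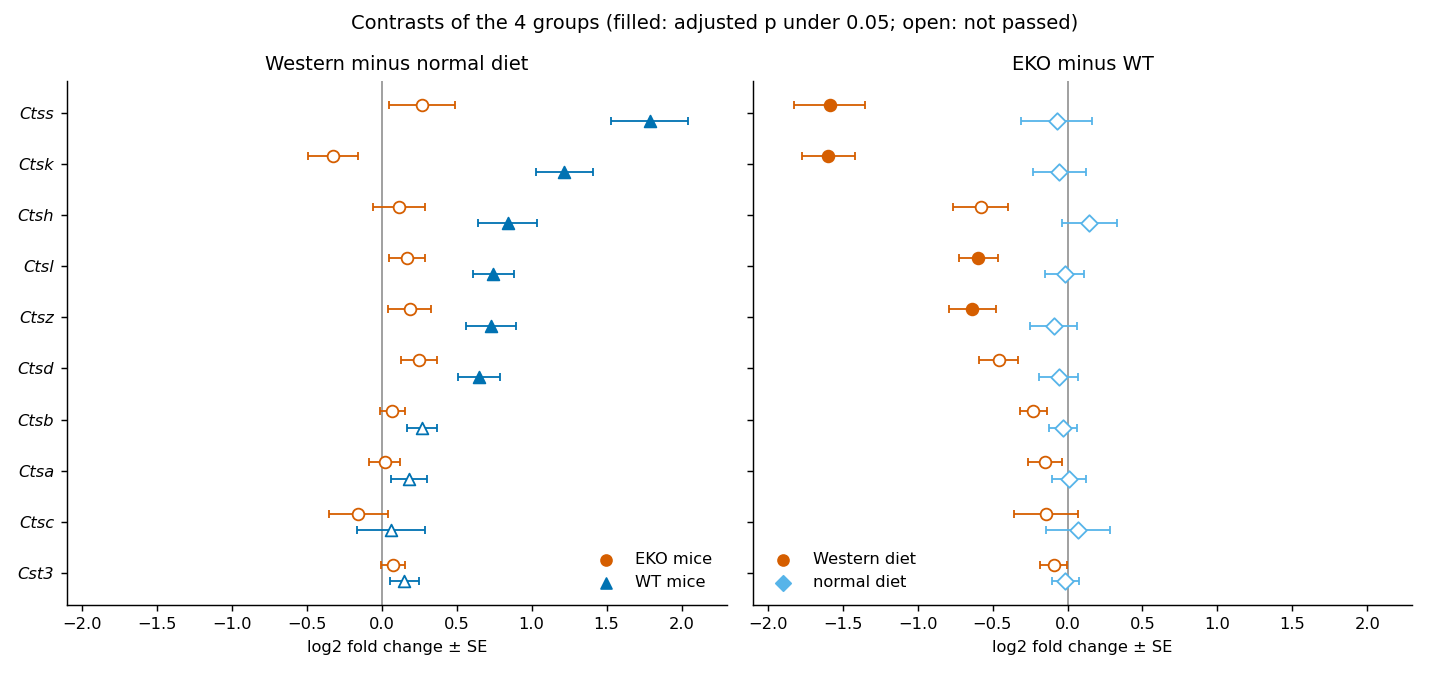
Log2 fold change ± SE of each gene for Western minus normal diet in EKO and WT mice (left) and for EKO minus WT on each diet (right); filled points passed at an adjusted p under 0.05. The points for diet in WT lie between 0.06 and 1.79, those for EKO minus WT on Western diet between -1.60 and -0.09, and those for EKO minus WT on normal diet between -0.09 and 0.14.

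The interaction tests whether the diet effect differed between the genotypes, as the EKO diet effect minus the WT one. It passed for 1 of the 10 genes, Ctsk (-1.54 ± 0.25, adjusted p = 0.0146, 95% interval -2.08 to -1.0), beside 0.336% of all genes passing in that direction. For Ctss the estimate was about as large, -1.51 ± 0.34, with a 95% interval of -2.23 to -0.79, but it did not pass (adjusted p = 0.0633). The next estimates were -0.72 ± 0.26 for Ctsh (adjusted p = 0.287), -0.58 ± 0.18 for Ctsl (0.211), -0.54 ± 0.22 for Ctsz (0.366) and -0.40 ± 0.18 for Ctsd (0.440). The smallest were -0.22 ± 0.30 for Ctsc, -0.20 ± 0.13 for Ctsb, -0.16 ± 0.16 for Ctsa and -0.08 ± 0.13 for Cst3, with adjusted p values from 0.656 to 0.887. A difference in diet effect between genotypes was therefore shown for Ctsk alone at this threshold, although 6 of the 10 had an unadjusted p under 0.05, beside 10.8% of all genes. Ctsk did not pass without WT normal replicate 2 (-1.41, adjusted p = 0.0532). Without WT Western replicate 1, both Ctsk (-1.69 ± 0.25, adjusted p = 0.00361) and Ctss (-1.67 ± 0.35, adjusted p = 0.0218) passed. Ctss passed without EKO normal replicate 2 (-1.70, adjusted p = 0.0200) or 4 (-1.26, adjusted p = 0.0498) as well.

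The split of the arrays by background left the leading members in place. With the split as a block, the WT diet effect was 1.79 ± 0.21 for Ctss (adjusted p = 0.000185) and 1.22 ± 0.17 for Ctsk (adjusted p = 0.000697). Within the 9 arrays of lower background it was 1.88 ± 0.27 for Ctss (adjusted p = 0.00303) and 1.36 ± 0.22 for Ctsk (adjusted p = 0.00539). The arrays of higher background hold 1 WT array per diet, which allows no test, and there the WT Western array exceeded the WT normal one by 1.61 for Ctss and 0.92 for Ctsk. Both thus had the same direction in each set of arrays. In the interaction, Ctss passed with the block (-1.41, adjusted p = 0.0229) and within the 9 arrays (-1.67, adjusted p = 0.0447). Ctsk passed in both of those fits, with -1.49 (adjusted p = 0.00744) and -1.77 (adjusted p = 0.0198). Within the 9 arrays Ctsz did not pass for diet in WT (0.77 ± 0.22, adjusted p = 0.0520) or between genotypes on Western diet (-0.57 ± 0.22, adjusted p = 0.152).

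Macrophage markers moved with the cathepsins. The mean of 12 macrophage markers was 9.67, 10.14, 9.90 and 9.92 in EKO Western arrays and 9.64, 9.35, 9.91 and 10.23 in EKO normal arrays. It was 10.49, 10.66 and 10.91 in WT Western arrays, against 9.65, 9.69 and 9.88 in WT normal arrays. In all 4 groups the array with the highest marker mean was also the one with the most members at their highest: EKO Western replicate 2 for 5 of the 10 genes, EKO normal replicate 4 for 9, WT Western replicate 3 for 9 and WT normal replicate 3 for 5. The array with the lowest marker mean had the most members at their lowest in EKO Western (replicate 1, for 8), EKO normal (replicate 2, for 8) and WT Western (replicate 1, for 9). In WT normal, replicate 1 shared that place with replicate 3, each lowest for 4. This order was not particular to the macrophage markers. The arrays highest for them were also highest in their groups for the mean of 10 sorting receptors and tagging enzymes. Those means were 10.23, 10.24, 10.44 and 10.20, in the group order above. The mean of 6 resident macrophage markers was highest in these arrays too. In each group the array lowest for the 12 markers belonged to the set of higher background. Of the 12 markers, 7 rose on Western diet in WT and 0 passed in EKO, and 8 were lower in EKO than in WT on Western diet. Mpeg1 rose by 2.0 ± 0.30, Cd68 by 1.57 ± 0.26, Adgre1 by 1.35 ± 0.26 and Tyrobp by 1.20 ± 0.23. Of 8 measured markers of lipid-associated macrophages, 6 rose in WT, led by Atp6v0d2 (3.71 ± 0.46), Gpnmb (2.24 ± 0.34), Itgax (2.15 ± 0.17) and Trem2 (1.31 ± 0.24). None of 6 resident macrophage markers passed. In WT, 2 of 5 dendritic cell markers rose (Clec9a by 0.74 ± 0.12 and Flt3 by 0.41 ± 0.10), 3 of 4 markers of dividing cells rose, and 5 of 6 mesothelial and 2 of 8 adipocyte markers fell. Of 6 T and NK cell markers Cd3e rose (0.40 ± 0.11), of 5 neutrophil markers S100a8 rose (0.57 ± 0.14), and of 5 smooth muscle markers Myh11 fell (-0.78 ± 0.19). Without WT Western replicate 1, 9 of the 12 macrophage markers and 6 of the 8 lipid-associated ones passed as higher for diet in WT. In that fit all 4 markers of dividing cells rose, 4 of 6 mesothelial and 1 of 8 adipocyte markers fell, and Cd3e did not pass (adjusted p = 0.101). The part of any of these in the change of the cathepsins was not tested.

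**Figure D3:**
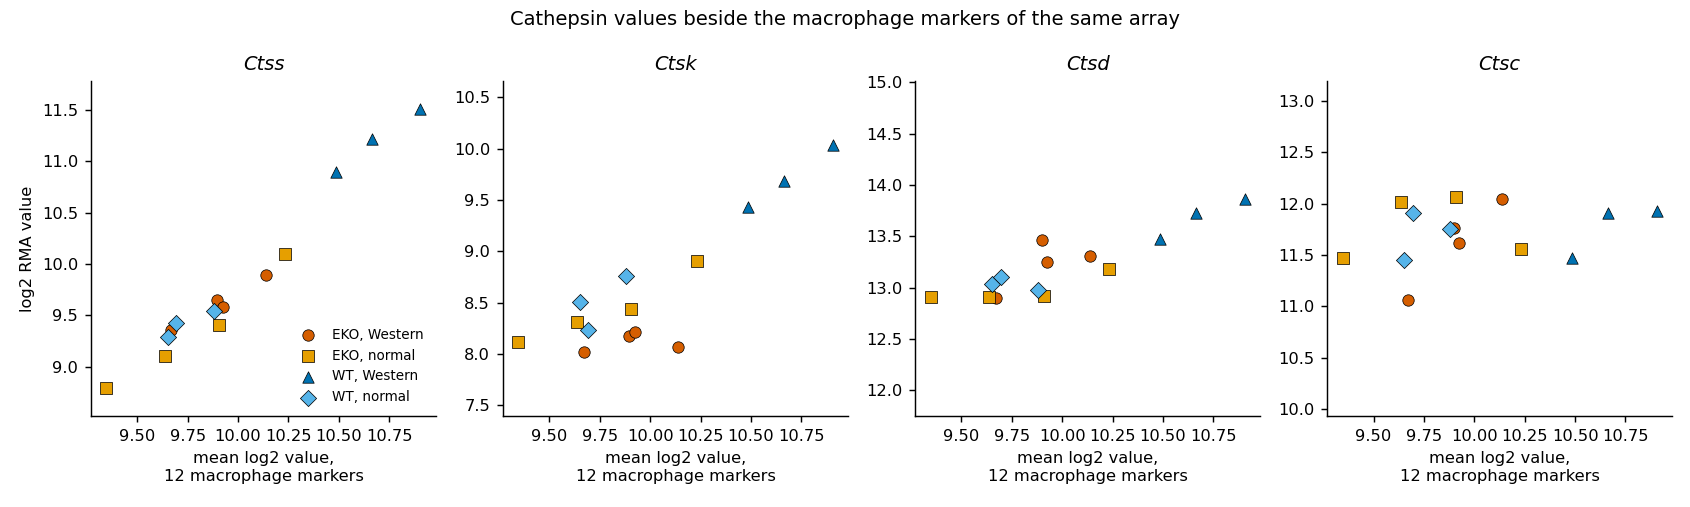
Log2 level of Ctss, Ctsk, Ctsd and Ctsc (1 panel each, y axis) in every array, against the mean log2 level of 12 macrophage markers in the same array (x axis). The 3 WT Western arrays, at 10.49 to 10.91 for the markers, lie highest for Ctss, Ctsk and Ctsd and not for Ctsc; both axes share the array, and the points are shown as a description.

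Among other genes of the pathway, the inhibitor Cstb stood beside the cathepsins. Cstb encodes cystatin B, which blocks papain-family cathepsins inside the cell. Its level was 10.11 ± 0.18 in EKO Western and 10.13 ± 0.21 in EKO normal (SD, n = 4 each), against 11.22 ± 0.25 in WT Western and 10.16 ± 0.10 in WT normal (SD, n = 3 each). Cstb rose by 1.06 ± 0.15 on Western diet in WT (adjusted p = 0.000953) and was lower in EKO on Western diet by a log2 fold change of -1.11 ± 0.14 (adjusted p = 0.000406). Its interaction passed too (-1.08 ± 0.19, adjusted p = 0.0243). Cstb rose by 1.20 ± 0.15 in WT without WT Western replicate 1 (adjusted p = 0.000231). It was the only one of 17 measured cystatins to pass in any of the 5 comparisons. Several of these cystatins, such as Csta1, Cst12 and Stfa2 (group levels 5.03 to 5.63), lay below the array background. Ahsg, a liver-made member of that list, had 8.04 ± 1.48 in WT Western, the high value being in replicate 1.

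Of 10 further lysosomal and endosomal proteases, 3 rose in WT. Lgmn, the asparaginyl endopeptidase that processes several cathepsins, rose by 1.06 ± 0.19 (adjusted p = 0.00516). The carboxypeptidase gene Prcp rose by 0.62 ± 0.17 (adjusted p = 0.0462) and the aspartic protease gene Napsa by 0.51 ± 0.12 (adjusted p = 0.0251). Lgmn (-0.88 ± 0.18) and Prcp (-0.65 ± 0.16) were also lower in EKO than in WT on Western diet. Prcp did not pass for diet in WT without WT Western replicate 1 (adjusted p = 0.0699), while Lgmn (1.17 ± 0.21) and Napsa (0.57 ± 0.14) did. In that fit the carboxypeptidase-family gene Scpep1 passed too, for diet in WT (0.79 ± 0.20, adjusted p = 0.0261) and as lower in EKO on Western diet (-0.71 ± 0.19, adjusted p = 0.0287), and Napsa passed for the interaction (-0.71 ± 0.17, adjusted p = 0.0454). None of 12 other measured papain-family genes passed in any comparison, and their median log2 fold change for diet in WT was 0.00. That list holds Ctsf, Ctso and Ctsw, and rodent placental cathepsins. Of the latter, Ctsj, Ctsq, Cts6, Cts7 and Cts8 had group levels between 5.48 and 6.07, below the array background (6.29 to 6.84). The list median is thus drawn in part from genes without a signal above background.

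Few of the genes that sort and control cathepsins passed. Of 10 sorting receptors and tagging enzymes 1 passed, Sort1, which encodes sortilin and fell by 0.43 ± 0.11 in WT (adjusted p = 0.0304). None of the 4 MiT-TFE transcription factors passed over all 14 arrays, with a median log2 fold change of 0.18 for diet in WT. Among 6 measured protease inhibitors of the serpin and CTLA-2 families, Serpinb9 rose by 0.92 ± 0.23 in WT (adjusted p = 0.0316) and was lower in EKO on Western diet (-0.93 ± 0.22, adjusted p = 0.0211). Calls on the sorting genes and transcription factors depended on WT Western replicate 1. Without that array Sort1 did not pass (adjusted p = 0.0763). In that fit Sorl1, a sorting receptor gene, rose by 1.17 ± 0.30 in WT (adjusted p = 0.0292) and Tfec, of the MiT-TFE family, by 0.65 ± 0.13 (adjusted p = 0.00786). For genotype on Western diet the same fit gave lower levels in EKO of Sorl1 (-1.19 ± 0.28), Nagpa (-0.62 ± 0.15), Tfec (-0.60 ± 0.13) and Tfe3 (-0.55 ± 0.14).

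Of 10 known substrates of cathepsins, 2 rose in WT. Cd74, the invariant chain that Ctss cuts, rose by 0.77 ± 0.19 (adjusted p = 0.0290), and Grn, the progranulin gene, by 0.52 ± 0.10 (adjusted p = 0.00629). On Western diet 4 substrates were lower in EKO than in WT: Cd74 (-0.64 ± 0.18), Grn (-0.48 ± 0.09) and the collagen genes Col1a1 (-0.62 ± 0.10) and Col3a1 (-0.63 ± 0.17). Cd74 did not pass for genotype on Western diet without WT Western replicate 1 (adjusted p = 0.0641), while Grn and both collagen genes did. Col1a2 joined them in that fit (-0.55 ± 0.15, adjusted p = 0.0337), and Grn passed for the interaction (-0.58 ± 0.13, adjusted p = 0.0360). None of the 3 partners of Ctsa passed for diet in WT, while Galns was lower in EKO on Western diet (-0.52 ± 0.13, adjusted p = 0.0266) and, without WT Western replicate 1, also rose for diet in WT (0.54 ± 0.14, adjusted p = 0.0334). Of 9 serine proteases of leukocyte granules, listed as possible targets of Ctsc, 1 passed, Prtn3, which fell by 0.51 ± 0.13 in WT (adjusted p = 0.0380). No gene of these pathway lists passed for diet in EKO or between genotypes on normal diet.

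**Figure D4:**
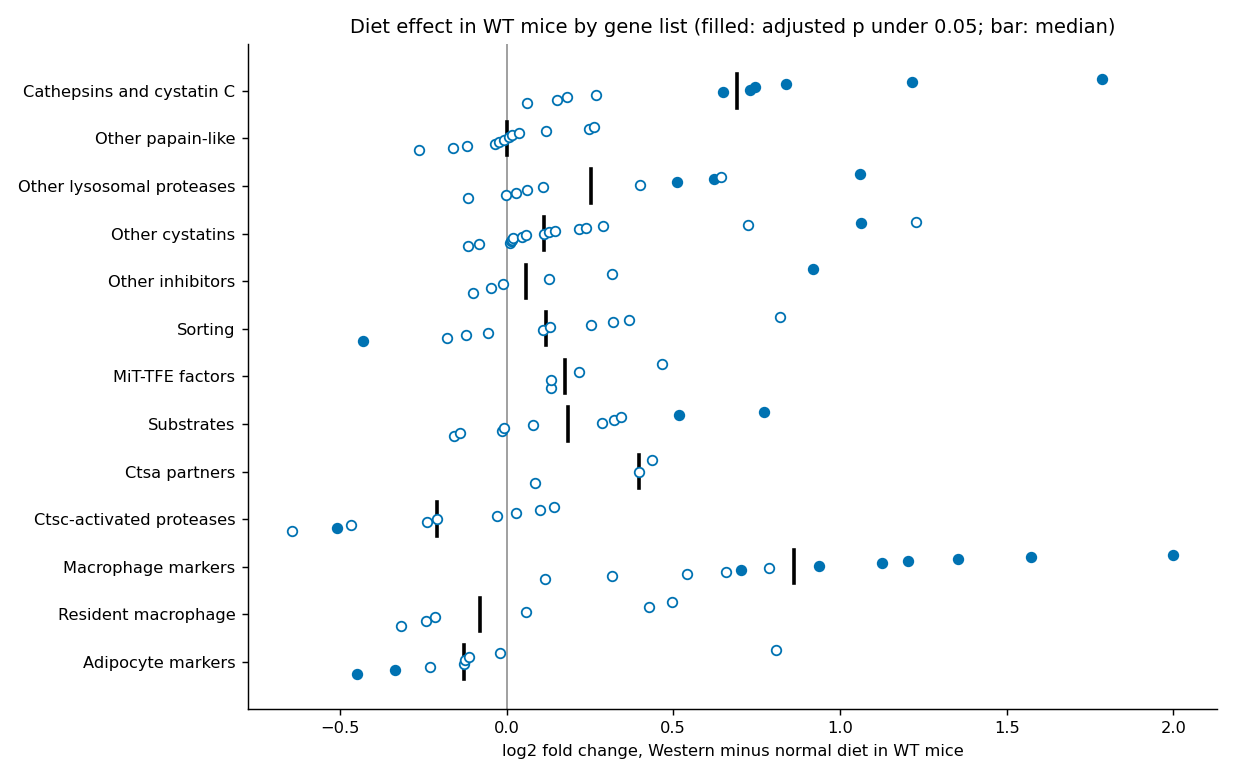
Log2 fold change for Western minus normal diet in WT mice, with 1 row per gene list, 1 point per measured gene (filled where the adjusted p was under 0.05) and a bar at the list median. The median is 0.69 for the cathepsins and cystatin C, 0.00 for the other papain-family genes and 0.86 for the macrophage markers. Several of the other papain-family genes and other cystatins had levels below the array background.

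The pattern of each member over the 14 arrays was compared with genes outside the group, after each gene's own mean was subtracted. The measure was the root mean square (RMS) difference on the log2 scale. Predicted or unnamed genes, small RNAs and families such as olfactory receptors were passed over. For Ctss, whose own RMS around its mean was 0.78, the closest genes were Cd84 (0.16), Dpep2 (0.18) and Arhgap25 (0.19). For Ctsk (own RMS 0.62) they were C5ar1 (0.18), Hsd17b7 (0.18) and Lox (0.19). Ctsh (0.38) was followed most closely by Stom (0.14), As3mt (0.15) and Rassf4 (0.15). Stom was also among the 3 closest to Ctsl (0.12) and to Ctsd (0.10), Ctsl being nearest to Dbf4 (0.11) and Gpc1 (0.11), and Ctsd to Rtn4 (0.07), with Ect2 (0.11) after Stom. Ctsz was nearest to Slc7a7 (0.11), Rac2 (0.12) and Tspan15 (0.12). Within the group, Ctsb and Cst3 lay closest (0.087) and Ctsc and Ctss farthest apart (0.78). Ctsl lay 0.099 from Ctsd, nearer than any gene named above for Ctsl.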

How the data were processed

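RNA of 14 epididymal fat pads was measured on Affymetrix whole-transcript arrays, 1 array per sample, and groups and replicate numbers were taken from the labels. The authors deposited 1 table of log2 intensities per probe set, which come from RMA, per the submitters' processing notes. RMA subtracts a modelled background, makes the intensity distributions of the arrays equal and summarises the probes of a set, so a shift shared by most genes is removed. No source used here gives its settings or version. The values ran from 4.21 to 14.55, array medians from 7.92 to 8.10, and arrays of 1 group correlated at 0.981 to 0.996. The main results use these values as they stand. The number of arrays limits the precision. Since nothing states separate cages or litters, p-values measure the spread between these samples.

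Of 34760 rows, 21640 carry 1 symbol in the platform annotation, 1321 several and 11799 none. Rows with several symbols or none were not named. By Entrez ID 21553 rows matched the GRCm38.p6 table, and 0 symbols changed. For the 954 genes with several probe sets the one with the highest mean was kept, leaving 19937 genes. That table was otherwise used for neighbouring genes only. Promoter windows are RefSeq's.

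For the 5 contrasts, limma 3.58.1 (R 4.3.3) fitted 1 mean per group over the 14 arrays, leaving 10 residual degrees of freedom, and eBayes moderated the variances under the default prior. The threshold was a Benjamini-Hochberg adjusted p under 0.05. Alternatives were another prior, median centring, quantile normalization, leaving out the dimmest 25% of genes, the mean of all probe sets, only the groups compared, replicate or background blocks, arrays of lower background only, and leaving out each array. The script was tested on simulated data. All 10 members are named in each comparison. Of each pathway list, up to 4 genes per direction that passed are named. For each member that passed, the 3 genes of most like pattern outside the group are named. Other genes were named after their values were seen. The members and lists were chosen with earlier results of these data known. The hepatocyte list was added after seeing the arrays. Samples with the same replicate number did not deviate together in every pair (r from -0.59 to 0.64). This does not settle whether the numbers pair samples. The labels do not say so, and the main fit does not pair them. Figures were drawn with matplotlib 3.10.9.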

Additional observations from a re-analysis of the deposited data

Results flagged for a closer look

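Of 20 sets of 4 EKO arrays (10 genes on each diet), 4 held an array far from the other 3, where about 1 in 20 sets does so by chance. The 10 sets of a diet share the same 4 arrays, so they are not independent of each other. Ctsb in EKO on Western diet replicate 1 was low, at 13.33. The other sets are 3 of EKO on normal diet, in which replicate 4 was high: Ctsa at 11.88, Ctsb at 13.62 and Ctsd at 13.19. The same array had the highest mean of the 12 macrophage markers in its group, 10.23. Without it, the diet difference in EKO was 0.11 for Ctsa, 0.16 for Ctsb and 0.32 for Ctsd, none past the threshold.

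The diet effect on Ctsk differed between the genotypes by -1.541 on the log2 scale, EKO minus WT (limma adjusted p = 0.0146), with all 3 WT Western arrays above all 3 WT normal arrays and the EKO diet groups overlapping.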

How the results depend on the processing

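For diet in WT, Ctss, Ctsk and Ctsl passed in each of the 15 alternatives. Ctsk and Ctss passed for genotype on Western diet in each of 16, and Ctsk for the interaction in 21 of 22. Of all genes, 1094 passed for diet in WT (636 higher), against 1735 with quantile normalization (918 higher), 479 with only the groups compared, 2007 with the background block, 2152 in the arrays of lower background and 415 to 1514 when 1 array was left out. On Western diet 1134 genes differed by genotype (326 higher and 808 lower), against 1845 with quantile normalization (794 higher and 1051 lower), 2033 with the background block and 316 to 2108 with 1 array left out. For diet in EKO the count was 0, against 1 with the replicate block and 0 to 4 with 1 array left out. For genotype on normal diet it was 1, against 2 with the trend and robust prior, without the dimmest 25%, with either block and in the arrays of lower background, and 1 to 3 with 1 array left out. The interaction gave 96 genes, against 285 with quantile normalization, 159 with the replicate block, 320 with the background block, 566 in the arrays of lower background and 37 to 499 with 1 array left out. Of the members, 3 to 6 passed for diet in WT, 2 to 5 for genotype on Western diet and 0 to 2 for the interaction with 1 array left out. The interaction passed for 2 members, Ctsk and Ctss, in place of 1 with quantile normalization, without the dimmest 25%, with either block and in the arrays of lower background. The replicate block ended no call of a member. It gave Ctsd (adjusted p = 0.0227) and Ctsh (adjusted p = 0.0495) a call for genotype on Western diet and Ctss one for the interaction (adjusted p = 0.0349). On Western diet Ctsd also passed with the trend and robust prior (0.0424), median centring (0.0417), quantile normalization (0.0273), without the dimmest 25% (0.0425), with the background block (0.0320) and in the arrays of lower background (0.0257), and Ctsh with quantile normalization (0.0486). The cause of these shifts was not tested.

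Some differences that never passed turned sign. For genotype on normal diet, Ctsa was -0.0489 with the replicate block, and in the arrays of lower background Ctsb was 0.0025, Ctsk 0.0577, Ctsl 0.0923, Ctss 0.0488 and Cst3 0.0376. With 1 array left out, the range there was -0.0829 to 0.0915 for Ctsa, -0.1184 to 0.0102 for Ctsb, -0.0544 to 0.1740 for Ctsc, -0.2088 to 0.0766 for Ctsk, -0.1155 to 0.0650 for Ctsl, -0.3210 to 0.1149 for Ctss, -0.2257 to 0.0034 for Ctsz and -0.0688 to 0.0337 for Cst3. For diet in EKO it was -0.0148 to 0.1147 for Ctsa, -0.2971 to 0.0317 for Ctsc and -0.0206 to 0.2560 for Ctsh. Ctsc ranged from -0.0655 to 0.2095 for diet in WT and from -0.2924 to 0.0428 for genotype on Western diet.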
